A study of Mus musculus with 12 samples.

Results

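The genes described here are the glucocorticoid receptor gene Nr3c1, the hormone-activating enzyme gene Hsd11b1 and 8 target genes of the receptor, Fkbp5, Tsc22d3, Errfi1, Hif3a, Zbtb16, Sgk1, Klf9 and Dusp1. They were taken by symbol, 10 of the 49315 genes in the count table, and all 10 were among the 18161 genes tested. The bone was the femoral shaft of male mice aged 12 weeks that carried normal catalase genes (Cat +/+, wild type) or lacked catalase (Cat -/-, knockout), an enzyme of peroxisomes that clears hydrogen peroxide. Mice were gavaged once a day on 4 days with ethanol at 3, 3, 4 and 4.5 g per kg of body weight, given as a 31.5% (by volume) solution, or with the same volume of phosphate-buffered saline (PBS), and were killed 6 hours after the last dose. Of the 12 libraries, numbers 1 to 3 came from knockout mice given PBS, 4 to 6 from knockout mice given ethanol, 7 to 9 from wild type given PBS and 10 to 12 from wild type given ethanol. Each library held RNA pooled from 2 mice, so the tests measure the spread between pools. Which exons of Cat the -/- allele lacks was not stated in the labels.

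Glucocorticoids are steroid hormones of the adrenal cortex, corticosterone in the mouse. The receptor waits in the cytoplasm with chaperones of the Hsp90 system, moves to the nucleus when it binds hormone, and binds DNA at glucocorticoid response elements, pairs of inverted half-sites. Some of its targets feed back on it or on inflammatory and growth signals, and in bone an excess of the hormone is known to suppress osteoblasts. Hormone levels were not measured in the data used here.

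Promoter windows are shown first because the receptor acts through DNA elements, and members with and without such letters in these windows can be set beside their expression. RefSeq windows on GRCm38.p6, from 250 bases before to 50 after a transcription start, were matched by symbol for 8 of the 10 genes (16 windows). Nr3c1 and Zbtb16 had none. The full element searched was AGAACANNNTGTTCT, the half-site was AGAACA, and the cyclic AMP response element was TGACGTCA, each on both strands. On the opposite strand the half-site reads TGTTCT, and the full element contains it. The upstream 250 bases are printed for 4 members, with matches to these letters in capitals: Sgk1 (chr10:21993640-21993889, plus strand), which held the full element, Errfi1 (chr4:150854820-150855069, plus strand), which passed the test in both genotypes, Tsc22d3 (chrX:140600523-140600772, minus strand), the highest member per length, and Fkbp5 (chr17:28486150-28486399, minus strand), with the second largest averaged rise.
Sgk1: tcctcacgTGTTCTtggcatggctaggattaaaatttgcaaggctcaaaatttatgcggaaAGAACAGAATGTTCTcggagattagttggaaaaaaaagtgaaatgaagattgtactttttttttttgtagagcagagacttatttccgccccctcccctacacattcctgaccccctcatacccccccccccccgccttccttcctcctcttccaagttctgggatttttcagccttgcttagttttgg
Errfi1: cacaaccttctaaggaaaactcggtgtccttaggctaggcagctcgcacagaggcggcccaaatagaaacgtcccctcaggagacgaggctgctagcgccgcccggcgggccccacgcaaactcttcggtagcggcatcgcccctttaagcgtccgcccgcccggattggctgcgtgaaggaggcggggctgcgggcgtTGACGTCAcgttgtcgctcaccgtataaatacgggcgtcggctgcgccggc
Tsc22d3: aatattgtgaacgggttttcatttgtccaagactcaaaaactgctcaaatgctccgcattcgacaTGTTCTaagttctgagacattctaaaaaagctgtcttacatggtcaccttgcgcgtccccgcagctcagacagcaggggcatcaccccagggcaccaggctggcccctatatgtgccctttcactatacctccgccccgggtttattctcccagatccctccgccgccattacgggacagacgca
Fkbp5: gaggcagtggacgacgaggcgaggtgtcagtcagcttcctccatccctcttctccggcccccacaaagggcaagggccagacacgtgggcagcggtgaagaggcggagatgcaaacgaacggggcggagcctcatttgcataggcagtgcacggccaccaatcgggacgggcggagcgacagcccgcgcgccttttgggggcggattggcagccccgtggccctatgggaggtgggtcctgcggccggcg
The Sgk1 window held the full element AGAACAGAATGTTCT, whose first base lay 189 bases before that start. Sgk1 has 6 windows, and the element lay 965 bases upstream of the most downstream of these starts. Only 3 of 32851 windows in the table (0.00913%) held the full element, and among the members Sgk1 alone did. The half-site was present in 4 of the 16 member windows, all of Sgk1 or Tsc22d3, and in 19.0% of all windows. The cyclic AMP response element was present in 2 of the 16 member windows and in 1.79% of all windows. The 2 were of Errfi1, 51 bases before the start, and Dusp1, 143 bases before it. The Fkbp5 window held none of these letters. Only exact matches from 250 bases before to 50 after a start were searched. A window without a match therefore does not show that the gene lacks an element. These matches are letters in a window, and binding was not measured.

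Library totals ran from 19950222 to 28789308 counts. Cat was at 65.9 to 74.2 CPM (reads counted for a gene, scaled to a common library size with its TMM factor) in the 6 knockout libraries and at 128 to 175 CPM in the 6 wild-type libraries, which matched the labels by level. Osteoblast markers took 1.25% to 4.31% of the counts and osteocyte markers 0.195% to 0.514%, and none of these 20 genes was at 0 in every library. Blood and vessel markers were also present, with ranges of 2.17% to 3.77% for the neutrophil list, 1.06% to 2.20% for the erythroid list, 0.0304% to 0.0806% for B cells, 0.373% to 0.576% for monocytes and macrophages, 0.0550% to 0.143% for adipocytes, 0.0561% to 0.0731% for endothelium and 0.297% to 0.499% for osteoclasts. The skeletal muscle list stood apart. Its share was 3.08%, 3.49% and 3.68% in wild-type libraries 8 (PBS), 9 (PBS) and 12 (ethanol), but 0.335% and 0.136% in wild-type libraries 7 (PBS) and 10 (ethanol). It took 1.96% in wild-type ethanol library 11, 0.323% to 1.26% in the knockout with PBS and 0.674% to 0.860% in the knockout with ethanol. In bulk RNA a lower level can mean fewer cells of a type or less RNA per cell, and these cannot be told apart.

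Set per kilobase of merged exons, the members spanned a wide range of levels. Tsc22d3 was the highest in all 4 groups, at 30.0 ± 10.5 CPM per kb in wild type with PBS (SD, n = 3) and 52.8 ± 10.9 in the knockout with ethanol. Nr3c1 was the next gene under PBS, at 17.0 ± 0.397 CPM per kb in wild type and 16.8 ± 0.162 in the knockout. Sgk1, Hsd11b1, Dusp1, Klf9, Errfi1 and Fkbp5 lay between 8.91 and 13.7 CPM per kb in wild type with PBS, and neighbours in that order overlapped over the libraries. Zbtb16 (2.86 ± 0.844) and Hif3a (0.220 ± 0.0267) were the lowest in that group, each apart from the gene above it. In the knockout with ethanol Fkbp5 had moved from the eighth place under PBS to the second place, at 22.2 ± 4.73 CPM per kb. Its libraries there overlapped those of the next gene, Errfi1 (19.6 ± 3.79). The merged exon length counts every annotated exon, so these levels understate genes that use few of their exons.

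**Figure D1:**
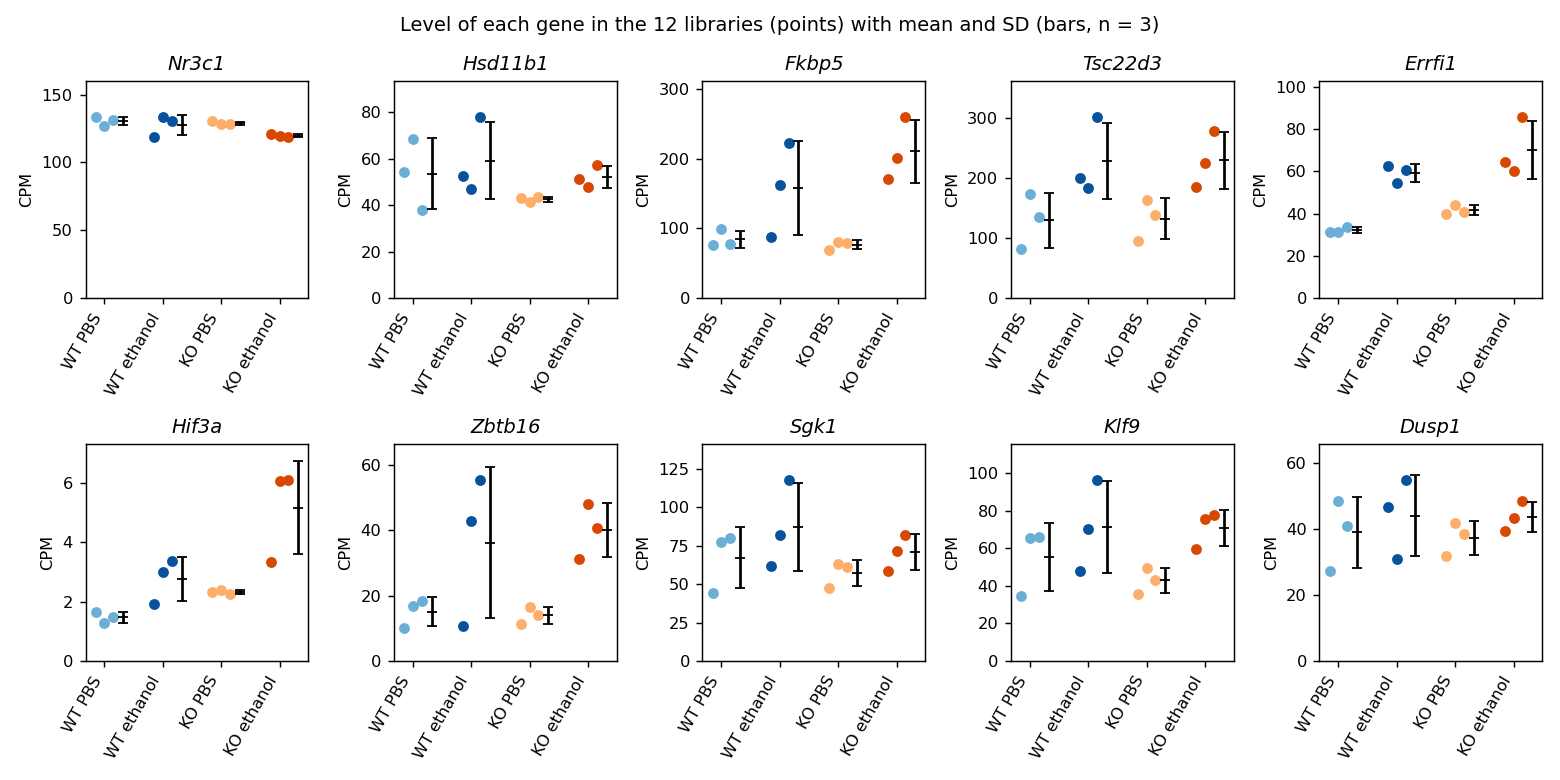
CPM of each gene (vertical axes, each starting at 0) in the 3 libraries of each group, with the mean and SD beside the points. Nr3c1 stayed between 119 and 133 CPM in all 12 libraries, while all 6 ethanol libraries of Errfi1 lay above all 6 PBS libraries.

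After ethanol 4 members rose when the effect was averaged over both genotypes: Errfi1 (1.76-fold), Fkbp5 (2.27-fold), Hif3a (2.03-fold) and Zbtb16 (2.62-fold). Errfi1 alone passed in wild type, and Errfi1, Fkbp5 and Hif3a passed in the knockout. No member fell. The receptor gene itself was at 0.978-fold in wild type and 0.929-fold in the knockout, and did not pass. These calls use edgeR's quasi-likelihood test on all 12 libraries, with Benjamini-Hochberg adjustment over all 18161 genes and a threshold of 0.05. The share of all tested genes called higher was 0.556% in wild type, 0.964% in the knockout and 5.02% in the averaged effect (1.26%, 1.87% and 10.8% in either direction), against 1, 3 and 4 of the 10 members. The median log2 fold change of the members was 0.59 in wild type, 0.74 in the knockout and 0.67 averaged, beside −0.02, 0.00 and −0.01 over all tested genes. Since the members were chosen with earlier results of these data known, these counts describe the set. Markers of bone cells differed in the same comparisons. In wild type 9 of 10 osteoclast markers were above 0 (median log2 change 0.60, 1 called higher), all 10 osteocyte markers were below 0 (median −0.57, none called), and so were all 10 osteoblast markers (median −0.51, none called). In the knockout the medians were 0.07, −0.39 and −0.86, with 1 osteoclast marker called higher and 3 osteoblast markers called lower. Their part in the members' values was not tested.

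Nr3c1, on chromosome 18, encodes the receptor. Wild-type libraries had 133, 127 and 131 CPM with PBS and 119, 133 and 131 CPM with ethanol. Knockout libraries had 130, 128 and 128 CPM with PBS and 121, 120 and 119 CPM with ethanol. The wild-type groups overlapped, and the 3 knockout ethanol libraries were below the 3 knockout PBS libraries, as were 16.0% of all tested genes in that comparison. The log2 change was −0.03 in wild type (95% interval −0.15 to 0.09, adjusted p = 0.829) and −0.11 in the knockout (−0.22 to 0.01, adjusted p = 0.366). Nr3c1 was the steadiest member, with at most a 1.12-fold span between the libraries of a group.

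Hsd11b1 (chromosome 1, 193221634 to 193264075 on GRCm38, minus strand) encodes the enzyme that turns inactive 11-dehydrocorticosterone back into corticosterone inside cells. It had 54.3, 68.5 and 37.8 CPM in wild type with PBS and 52.6, 47.0 and 77.8 CPM with ethanol. The knockout had 43.0, 41.4 and 43.4 CPM with PBS and 51.5, 47.8 and 57.2 CPM with ethanol. The wild-type groups overlapped widely, while every knockout ethanol library was above every knockout PBS library. Neither difference passed, with a log2 change of 0.14 (−0.35 to 0.63, adjusted p = 0.804) in wild type and 0.29 (−0.20 to 0.78, adjusted p = 0.588) in the knockout. The knockout change passed at the same size in 2 of 10 other settings, with only the groups compared (0.29, adjusted p = 0.0258) and without libraries 8, 9 and 12 (0.30, adjusted p = 0.0292). The wild-type direction rested on single libraries: it was −0.05 without library 9 and −0.10 without library 12.

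Among the targets, Fkbp5 (chromosome 17, 28399094 to 28517527, minus strand) encodes a co-chaperone that lowers the receptor's affinity for hormone and is part of its negative feedback. Wild-type levels were 76.6, 98.9 and 77.7 CPM with PBS and 87.9, 163 and 222 CPM with ethanol. Knockout levels were 68.9, 81.1 and 79.4 CPM with PBS and 171, 202 and 259 CPM with ethanol. Library 10 was the 1 ethanol library that fell inside the PBS range, and the knockout groups did not overlap. In the knockout Fkbp5 rose 2.75-fold (log2 1.46, SE 0.296, adjusted p = 0.0433, edgeR). In wild type the change was 1.87-fold (log2 0.90, SE 0.293, adjusted p = 0.174) and did not pass. The knockout call was fragile: it held without library 10 (adjusted p = 0.00751) or 12 (0.0231) and was lost on leaving out any 1 of the other 10 libraries, where the log2 change was 1.28 to 1.59 and the adjusted p 0.0572 to 0.158. Averaged over genotypes, the log2 rise was 1.18 (SE 0.208, adjusted p = 0.00895) and held on leaving out each library in turn (highest adjusted p 0.0284). Without the 3 libraries high in muscle markers (8, 9 and 12) it was 1.10 (adjusted p = 0.0713). That fit has library 7 as its 1 wild-type PBS library, which is assumed to vary like the other groups. In it the wild-type log2 change was 0.73, beside 0.90 with all libraries. Whether the lost call reflects a smaller effect was not tested.

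Tsc22d3 (chromosome X, 140539528 to 140600659, minus strand), also called GILZ, encodes a leucine zipper protein that carries part of the anti-inflammatory action of glucocorticoids. It had 82.2, 173 and 135 CPM in wild type with PBS and 200, 184 and 301 CPM with ethanol. The knockout had 96.2, 164 and 138 CPM with PBS and 185, 225 and 279 CPM with ethanol. In each genotype all ethanol libraries were above all PBS libraries, but the PBS libraries themselves spanned 2.11-fold in wild type and 1.70-fold in the knockout. Wild type gave a log2 change of 0.81 (SE 0.315, adjusted p = 0.244), and the knockout one of 0.79 (SE 0.314, adjusted p = 0.247). Averaged, it was 0.80 (SE 0.222, 95% interval 0.30 to 1.30), with an adjusted p of 0.05001, just over the threshold. It passed under 7 of 9 other settings (adjusted p 0.00668 with DESeq2 to 0.118 with no filter on low counts) and in 1 of the 12 fits that left out a library (0.0358 without library 8, 0.0573 to 0.116 in the other 11).

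Errfi1 (chromosome 4, 150853919 to 150868892, plus strand) encodes MIG6, a feedback inhibitor of epidermal growth factor receptors. In wild type it had 31.4, 31.5 and 33.7 CPM with PBS and 62.6, 54.7 and 60.6 CPM with ethanol. In the knockout it had 39.9, 44.2 and 40.9 CPM with PBS and 64.4, 60.3 and 85.6 CPM with ethanol. The 6 ethanol libraries were all above the 6 PBS libraries, and the PBS libraries of a genotype lay within 1.11-fold of each other. Errfi1 rose 1.84-fold in wild type (log2 0.88, SE 0.114, adjusted p = 0.0109) and 1.68-fold in the knockout (log2 0.75, SE 0.113, adjusted p = 0.00942, edgeR). The wild-type call held on leaving out each library in turn and was lost without libraries 8, 9 and 12 together (adjusted p = 0.146), where 1 wild-type PBS library is left and the log2 change was 0.92. The knockout call was lost without library 1 (log2 0.72, adjusted p = 0.0591) or library 3 (log2 0.74, adjusted p = 0.0603). The averaged rise of 0.82 (SE 0.0804, adjusted p = 0.000507) passed under every alternative run, with 0.0119 as the highest adjusted p.

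Hif3a (chromosome 7, 17031507 to 17062427, minus strand) encodes a hypoxia-inducible factor subunit, and its shorter forms inhibit the other subunits. The member is scarce, with 26 to 167 counts per library. It had 1.65, 1.29 and 1.48 CPM in wild type with PBS and 1.94, 3.01 and 3.37 CPM with ethanol. The knockout had 2.31, 2.40 and 2.27 CPM with PBS and 3.35, 6.05 and 6.10 CPM with ethanol. No group overlapped its PBS control. In the knockout it rose 2.21-fold (log2 1.15, SE 0.249, adjusted p = 0.0411), and in wild type the change was 1.87-fold (log2 0.90, SE 0.266, adjusted p = 0.124). The knockout call held without library 4, 7, 10 or 12 and was lost on leaving out any 1 of the other 8, with log2 changes of 1.01 to 1.17 and an adjusted p of 0.0514 to 0.160. The averaged rise was 1.02 (SE 0.182, adjusted p = 0.00592), and it passed on leaving out each library in turn.

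Zbtb16 (chromosome 9, 48654297 to 48836222, minus strand) encodes PLZF, a zinc finger transcription factor. Wild-type levels were 10.02, 16.9 and 18.4 CPM with PBS and 10.6, 42.6 and 55.3 CPM with ethanol. Knockout levels were 11.2, 16.5 and 14.1 CPM with PBS and 31.3, 47.9 and 40.7 CPM with ethanol. Library 10 stood inside the wild-type PBS range, so that the wild-type ethanol libraries spanned 5.21-fold, while the knockout groups did not overlap. Neither genotype passed: wild type gave a log2 change of 1.26 (SE 0.517, adjusted p = 0.275), and the knockout 1.52 (SE 0.516, adjusted p = 0.180). Averaged, Zbtb16 rose, with a log2 change of 1.39 (SE 0.365, adjusted p = 0.0436). That call held without library 10 (log2 1.61, adjusted p = 0.00254) and was lost on leaving out any 1 of the other 11, with log2 changes of 1.17 to 1.48 and an adjusted p of 0.0651 to 0.101.

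The other targets were higher on average after ethanol without passing. Sgk1 (chromosome 10, 21882184 to 21999903, plus strand), a kinase gene that controls ion channels and transporters, had 44.3, 77.5 and 80.1 CPM in wild type with PBS and 61.7, 81.8 and 118 CPM with ethanol. Its knockout levels were 47.7, 62.9 and 61.3 CPM with PBS and 58.6, 71.6 and 82.1 CPM with ethanol. The groups overlapped in both genotypes, with log2 changes of 0.37 (−0.26 to 1.0, adjusted p = 0.566) and 0.31 (−0.32 to 0.93, adjusted p = 0.674). Averaged, the log2 change of Sgk1, the member with the full response element in a promoter window, was 0.34 (−0.10 to 0.78, adjusted p = 0.322). It passed in 1 of 9 other settings, the muscle covariate (log2 0.43, adjusted p = 0.0109), and in none of the 12 fits that left out 1 library.

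Klf9 (chromosome 19, 23141226 to 23168134, plus strand) encodes a Krüppel-like transcription factor. Wild-type levels were 34.5, 65.3 and 66.3 CPM with PBS and 47.8, 70.1 and 96.4 CPM with ethanol. Knockout levels were 35.9, 49.6 and 43.1 CPM with PBS and 59.9, 75.4 and 77.6 CPM with ethanol. The wild-type groups overlapped and the knockout groups did not. The log2 change was 0.37 (−0.30 to 1.04, adjusted p = 0.600) in wild type and 0.73 (0.05 to 1.40, adjusted p = 0.267) in the knockout.

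Dusp1 (chromosome 17, 26505590 to 26562128 in GENCODE M21, minus strand) encodes a phosphatase that switches off stress-activated MAP kinases. The RefSeq start of its promoter window, 26508472, lies inside that span. Wild-type levels were 27.4, 48.5 and 41.0 CPM with PBS and 46.6, 30.8 and 54.9 CPM with ethanol. Knockout levels were 31.7, 41.7 and 38.4 CPM with PBS and 39.5, 43.2 and 48.5 CPM with ethanol. The groups overlapped in both genotypes, with log2 changes of 0.18 (−0.35 to 0.71, adjusted p = 0.775) and 0.23 (−0.30 to 0.76, adjusted p = 0.722). The wild-type change was −0.02 without library 7. Its annotated exons share 11 bases with Ergic1, and no other member shares exon bases with another gene.

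**Figure D2:**
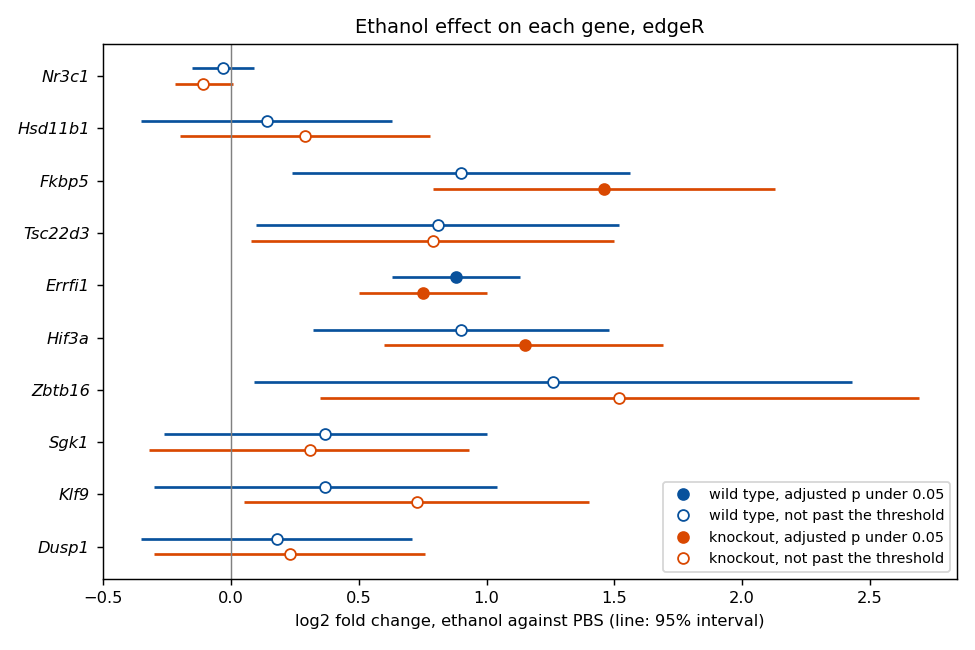
Log2 fold change of each gene, ethanol against PBS, with its 95% interval, in wild type (blue, upper) and knockout (orange, lower); filled points had an adjusted p under 0.05. Errfi1 is filled in both genotypes, Fkbp5 and Hif3a in the knockout, and the narrow intervals of Nr3c1 lie near 0.

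Counted over libraries, 3 members (Tsc22d3, Errfi1 and Hif3a) had every wild-type ethanol library above every wild-type PBS library, where 7.32% of all tested genes did. In the knockout 7 members did so (these 3 with Hsd11b1, Fkbp5, Zbtb16 and Klf9), where 16.3% of all genes did. Both held for the same 3 members, against 4.16% of all genes. The log2 change was above 0 in both genotypes for 9 of 10 members and for 34.9% of all genes. Against the 6 PBS libraries of both genotypes, the ethanol libraries were unequal. Library 10 was above all of them for 3 members (29.8% of all genes), library 11 for 8 (22.4%) and library 12 for 9 (24.8%). The knockout ethanol libraries 4, 5 and 6 were above all 6 for 7, 9 and 9 members (30.9%, 32.6% and 33.9% of all genes).

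Some of the spread between libraries went with the muscle marker share and some did not, and its part in these results was not tested beyond the fits given here. Library 7, with 0.335% muscle counts, was the lowest of all 12 for 6 members, and library 12, with 3.68%, the highest for 6, but the first had PBS and the second ethanol. Library 10, with the lowest share (0.136%), was the lowest for 0 members. Klf9 was lowest in libraries 7 and 1 (34.5 and 35.9 CPM, muscle shares 0.335% and 0.323%) and highest in library 12 (96.4 CPM). Sgk1 had the same lowest libraries and the same highest one. In the knockout with ethanol, library 6 had the lowest share (0.674%) and the highest Klf9 (77.6 CPM) and Sgk1 (82.1 CPM). Errfi1 did not follow the share: its wild-type PBS libraries had 31.4 to 33.7 CPM over shares of 0.335% to 3.49%. With the mean log2 CPM of the muscle list as a covariate in the edgeR fit, 4 members passed in wild type (Errfi1, Fkbp5, Zbtb16 and Klf9, where 2.74% of all genes passed), 5 in the knockout (these with Hif3a, 4.74%) and 7 in the averaged effect (these 5 with Tsc22d3 and Sgk1, 15.1%). In that fit the wild-type log2 change was 0.56 for Klf9 (adjusted p = 0.0220), 0.96 for Fkbp5 (adjusted p = 0.0459) and 1.38 for Zbtb16 (adjusted p = 0.0158). Over the 10 alternatives that change the processing or leave out those libraries together, the wild-type adjusted p ran from 0.0220 to 0.801 for Klf9, 0.0153 to 0.529 for Fkbp5 and 0.0158 to 0.619 for Zbtb16. Without libraries 8, 9 and 12, no member passed in wild type (0.194% of all genes, with 1 PBS library left in that arm), 4 passed in the knockout (7.03%) and 2 in the averaged effect (8.6%). With DESeq2 2 members passed in wild type (4.37%), 3 in the knockout (5.51%) and 6 in the averaged effect (15.4%). In edgeR fits of only the groups compared, 1 passed in wild type (0.0232%) and 5 in the knockout (9.44%).

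**Figure D3:**
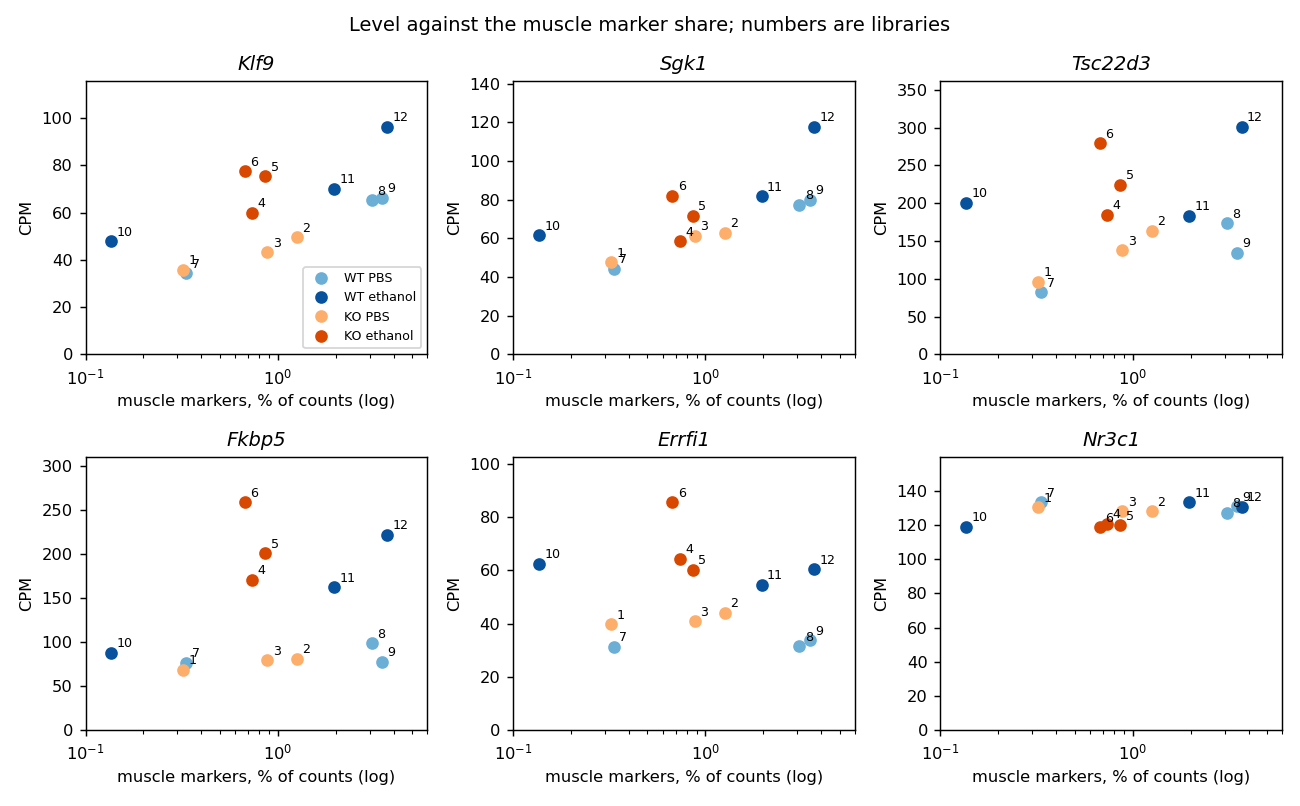
CPM of 6 members (vertical axes from 0) against the share of counts from 16 skeletal muscle markers (horizontal log axis), 1 numbered point per library, coloured by group. Klf9 and Sgk1 are lowest in libraries 1 and 7 and highest in library 12, while Errfi1 separates by gavage at low and high shares alike.

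The ethanol effect was not shown to differ between genotypes for any member. The interaction (knockout effect minus wild-type effect, log2) ran from −0.13 for Errfi1 (95% interval −0.48 to 0.22) to 0.56 for Fkbp5 (−0.37 to 1.48), with an adjusted p of 1.0 for every member. Hif3a was at 0.25 (−0.55 to 1.04) and Klf9 at 0.36 (−0.59 to 1.31). By edgeR 0 members and 0.0% of all tested genes passed. At an unadjusted p under 0.05 there were 0 members and 359 genes (1.98%), and 0 members passed by DESeq2, limma-voom or limma-trend. The intervals are wide, so differences of up to 1.48 on the log2 scale for Fkbp5 lie within them.

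Between genotypes under the same gavage, 0 members passed in edgeR, where 0.011% of all tested genes did under PBS and under ethanol alike, and 0 passed by DESeq2, limma-voom or limma-trend. At an unadjusted p under 0.05 there were 2 members under PBS (Errfi1 and Hif3a, where 7.43% of all genes were) and 1 under ethanol (Hif3a, 5.78%). Every knockout PBS library of Errfi1 (39.9 to 44.2 CPM) was above every wild-type PBS library (31.4 to 33.7 CPM), a log2 difference of 0.37 (0.12 to 0.62, adjusted p = 0.605). Hif3a did the same (2.27 to 2.40 against 1.29 to 1.65 CPM), with a log2 difference of 0.65 (0.08 to 1.23, adjusted p = 0.605). Such a gap, with the knockout higher, was seen under PBS in 8.98% of all genes. Under ethanol Hif3a was at 0.90 (0.35 to 1.44, adjusted p = 0.820), with overlapping groups. Over the members the knockout difference ran from −0.37 (Klf9) to 0.65 (Hif3a) under PBS and from −0.30 (Sgk1) to 0.90 (Hif3a) under ethanol. Muscle markers differed in the same comparisons, with a median log2 difference of −1.61 over 16 genes under PBS and −1.34 under ethanol, none past the test. All 12 erythroid markers were above 0 under both gavages (medians 0.44 and 0.40). All 12 neutrophil markers were below 0 (medians −0.28 and −0.25), and none of either list was called. The part of the muscle markers in the members' differences was not tested beyond the covariate fit, in which 0 members passed. The part of the other markers was not tested.

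Other genes described as induced by glucocorticoids were mostly higher after ethanol. Of 40 listed and tested, 2 rose in wild type, 7 in the knockout and 14 in the averaged effect, and none fell. The same calls took 0.556%, 0.964% and 5.02% of all tested genes. The log2 change was above 0 for 35 of 40 in wild type and 37 of 40 in the knockout (8411 and 9082 of the 18161 tested genes). The medians of the list were 0.28 and 0.34. Like the gene lists that follow, it was chosen with earlier results of these data known, so its counts and medians describe the set. The metallothionein genes Mt1 and Mt2, which encode metal-binding proteins, rose in both genotypes. For Mt2 the log2 rise in wild type was 1.73 (SE 0.242, adjusted p = 0.0219), and in the knockout 1.99 (SE 0.241, adjusted p = 0.00576). Mt1 rose by 1.02 (adjusted p = 0.0109) and 1.15 (adjusted p = 0.00362). In the knockout the threshold was also passed by Il1r2, the decoy receptor for interleukin-1 (log2 1.74, adjusted p = 0.0243), the kinase gene Map3k6 (1.15, 0.0216), Txnip, an inhibitor of thioredoxin (0.58, 0.0399), and Glul, glutamine synthetase (0.53, 0.0386). The wild-type changes of these 4 were 0.41 to 1.07 and did not pass, and their difference between genotypes was not called. Only the 6 called knockout genes with the smallest p are named. On leaving out each library in turn, Mt1 passed in all 12 fits in both genotypes and Mt2 in 9 of 12 in wild type and all 12 in the knockout, while the other 4 passed in 5 to 7 of 12. Fam107a had the largest averaged rise of the list (log2 2.22, SE 0.340, adjusted p = 0.00381). These counts moved with the setting, from 0 to 10 genes in wild type, 2 to 17 in the knockout and 9 to 24 averaged.

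Among genes that act with or around the receptor, calls by edgeR came in the averaged effect alone. As a background, 16.0% of all tested genes were at an unadjusted p under 0.05 in wild type and 16.4% in the knockout, and 10.8% were called in the averaged effect (5.81% lower). Of 15 genes of the chaperone complex, none passed within a genotype by edgeR, with 8 at an unadjusted p under 0.05 in wild type and 0 in the knockout. The log2 change was below 0 for 13 of the 15 in wild type (median −0.18) and for 9 in the knockout (median −0.01). No difference between genotypes was called for any of the 15. In the interaction 2 of them were at an unadjusted p under 0.05, beside 1.98% of all tested genes. DESeq2 called 1 in wild type and 0 in the knockout, and limma-voom and limma-trend called none. In the averaged effect 3 fell, the co-chaperones Stip1 (−0.18, adjusted p = 0.0223), St13 (−0.20, 0.0316) and Ptges3 (−0.16, 0.0400). Of 7 tested genes of hormone supply and related receptors, none passed within a genotype by any of the 4 tools (2 and 1 at an unadjusted p under 0.05 by edgeR). Abcb1b, a drug and steroid efflux pump, fell in the averaged effect (−0.29, adjusted p = 0.0130). Of 13 coregulators, none passed within a genotype by edgeR (3 and 2 at an unadjusted p under 0.05), while DESeq2 called 2 in wild type and 1 in the knockout. Averaged, the coactivator gene Ncoa3 rose (0.28, adjusted p = 0.00523) and the deacetylase gene Hdac2 fell (−0.17, adjusted p = 0.0152). These averaged calls passed on leaving out each library in turn in all 12 fits for Abcb1b, Ncoa3 and Hdac2, in 8 for Stip1, and in 2 each for St13 and Ptges3.

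Inflammatory genes that glucocorticoids are known to repress were tested as a separate list. None of 12 tested genes passed within a genotype by edgeR, DESeq2, limma-voom or limma-trend, with 6 in wild type and 2 in the knockout at an unadjusted p under 0.05 by edgeR, where 16.0% and 16.4% of all tested genes were. The medians were −0.22 and −0.20. In wild type 7 of the 12 were below 0 and 5 above (−0.96 to 0.44), and in the knockout 10 and 2 (−1.01 to 0.37). In the averaged effect 2 of the 12 were called, beside 10.8% of all genes: Ptgs2, which encodes cyclooxygenase-2, fell by 0.99 on the log2 scale (adjusted p = 0.0135), and the chemokine gene Cxcl10 by 0.77 (adjusted p = 0.0472). Both genes were scarce, with group means of 0.636 to 1.48 CPM for Ptgs2 and 2.09 to 3.84 CPM for Cxcl10. Of 13 bone genes described as glucocorticoid-responsive, Tnfsf11, which encodes RANKL, the signal for osteoclast formation, rose in wild type (0.84, adjusted p = 0.0398). The osteoblast transcription factor gene Runx2 fell in the knockout (−0.39, adjusted p = 0.0270). Tnfsf11 was at 0.67 in the knockout and Runx2 at −0.08 in wild type, without passing. No difference between genotypes was called for either gene. In the averaged effect 5 of the 13 were called, beside 10.8% of all genes. Tnfsf11 rose (0.76, adjusted p = 0.00340), and 4 fell: Alpl, alkaline phosphatase (−0.84, 0.00952), Runx2 (−0.24, 0.0187), Sp7, osterix (−0.76, 0.0268), and Col1a1, type I collagen (−0.81, 0.0476). On leaving out each library in turn, Tnfsf11 in wild type passed in 2 of 12 fits and Runx2 in the knockout in 7. The averaged calls passed in all 12 fits for Ptgs2, Tnfsf11 and Alpl, in 10 for Runx2, 8 for Sp7, 3 for Cxcl10 and 1 for Col1a1. The osteoblast marker list, which shares genes with this list, had all 10 genes below 0 in the averaged effect, with a median of −0.70, and 6 of them were called lower. The osteoblast share of counts was 3.66% to 4.31% in the knockout with PBS and 1.28% to 2.68% with ethanol, and 2.37% to 2.98% against 1.25% to 2.62% in wild type. Osteoclast markers took 0.297% to 0.351% in wild type with PBS and 0.330% to 0.499% with ethanol, and 0.357% to 0.376% against 0.350% to 0.417% in the knockout. Osteocyte markers took 0.311% to 0.514% in wild type with PBS and 0.245% to 0.325% with ethanol, and 0.304% to 0.344% against 0.195% to 0.365% in the knockout. The part of these shares in the changes was not tested.

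Relatives of the members were counted as well. Of 21 other genes of the Klf, Dusp, Sgk, Tsc22, Hif and Zbtb families, Dusp10 fell in wild type (−0.70, adjusted p = 0.0479), and Klf10 (0.41, 0.0300) and Klf13 (0.57, 0.0372) rose in the knockout. Klf13 was at 0.51 and Klf10 at 0.21 in wild type, and Dusp10 at −0.34 in the knockout, without passing. No difference between genotypes was called for any of them. Averaged, 4 rose (Klf13, Klf10, Klf2 and Epas1, by 0.23 to 0.54) and Dusp10 fell (−0.52, adjusted p = 0.0107), where 5.02% of all tested genes were called higher and 5.81% lower. On leaving out each library in turn, the wild-type call of Dusp10 passed in 1 of 12 fits, and the knockout calls of Klf10 and Klf13 in 7 and 5. The family medians were 0.09 in wild type and 0.13 in the knockout.

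**Figure D4:**
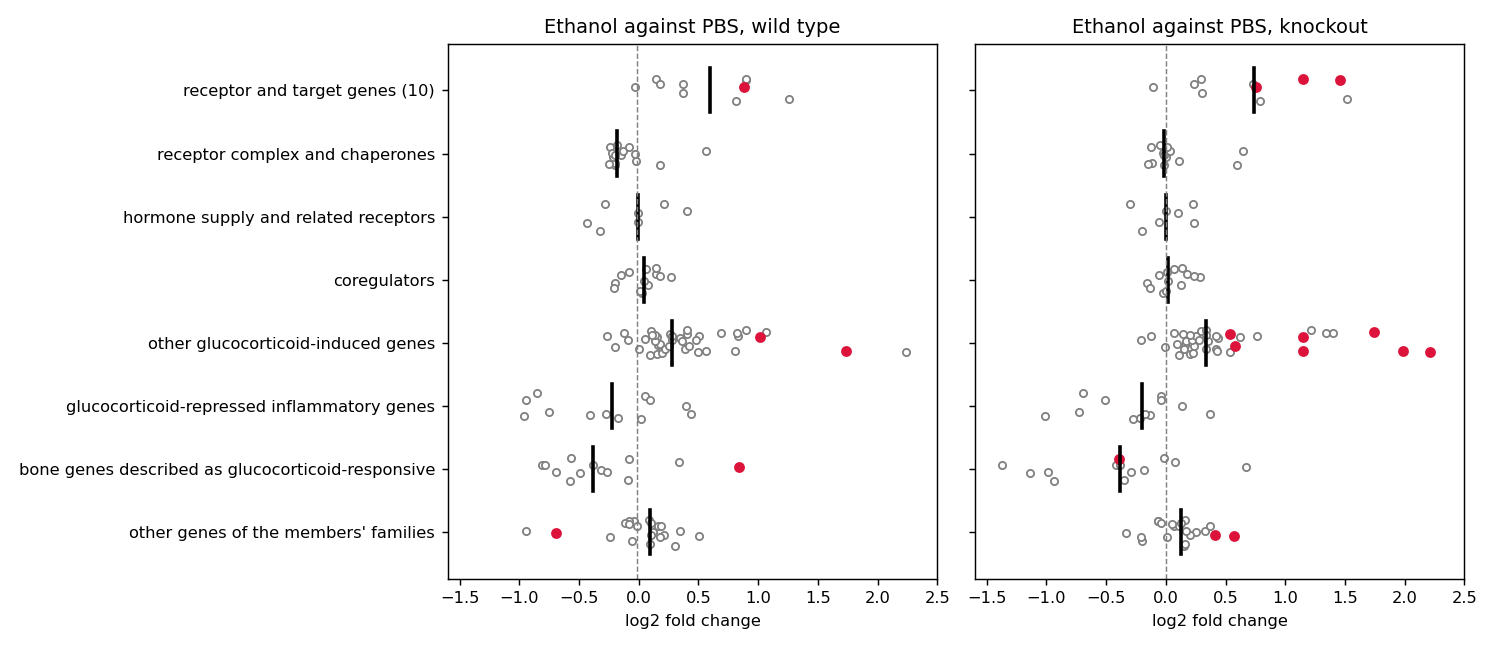
Log2 fold change of every gene of each list, ethanol against PBS, in wild type (left) and knockout (right); red points had an adjusted p under 0.05, black bars are list medians and the dashed line is the median of all tested genes. The members and the other glucocorticoid-induced genes mostly sit to the right of the line, and the coregulators close to it. The chaperone median is near the line in the knockout (−0.01) and to its left in wild type (−0.18), and no difference between genotypes was called for that list.

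The genes most like 3 of the members over the 12 libraries were found by the root mean square difference (RMS) of log2 CPM, standardised over the libraries, among 11578 genes. A smaller RMS means a closer pattern. For Nr3c1 they were Mphosph8 (RMS 0.320), Klf4 (0.391), Eif4a2 (0.479), Rock2 (0.482) and Zbtb41 (0.501). Every other member compared was far from Nr3c1, the nearest being Sgk1 at rank 5788 (RMS 1.43). For Fkbp5 the nearest were Map3k6 (0.302), Cyp2d22 (0.336), Il1r2 (0.341), Ms4a4a (0.348) and Sema6b (0.355), and the member Zbtb16 was at rank 7 (0.370). Map3k6 and Il1r2 are on the list of other glucocorticoid-induced genes above. That list was chosen with earlier results of these data known, so the match is not independent support. For Errfi1 they were Kcnt1 (0.246), Irs2 (0.248), Pdcd4 (0.294), Dhrs3 (0.296) and Adap2 (0.316), with Fkbp5 the nearest member at rank 332. All 5 of these Errfi1-like genes rose in both genotypes, from 0.33 for Pdcd4 in the knockout to 1.95 for Kcnt1 in the knockout on the log2 scale. Of these 10 calls, those of Dhrs3 and of Kcnt1 in the knockout passed on leaving out each library in turn. Kcnt1 in wild type passed in 11 of 12 such fits, and the other 6 in 3 to 8. These genes were chosen by their likeness to Errfi1 over the same 12 libraries, so their changes are a description.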

How the data were processed

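Bulk RNA sequencing was read from the deposited table of raw counts per Ensembl gene. The authors' tools were Trimmomatic 0.36, STAR 2.5.2b, featureCounts and Subread 1.5.2 on GRCm38, per the submitters' processing notes. Settings, annotation release, strand use and the treatment of multiply mapped reads were not stated in the labels. The deposited normalized signal, each count divided by 1 factor per library per the file's own values, was used in 1 alternative. Gene models and merged exon lengths came from GENCODE M21.

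Low genes were removed by filterByExpr (at least 10 counts, total at least 15). Libraries were scaled by TMM factors (0.908 to 1.046) and fitted in edgeR 4.0.16 (R 4.3.3), quasi-likelihood with robust estimation, 1 coefficient per group (8 residual degrees of freedom), with Benjamini-Hochberg adjustment over 18161 genes. All adjusted p-values are from this fit unless another tool is named. The averaged effect is the mean of both genotypes' ethanol effects. Alternatives were RLE and upper-quartile scaling, no low-count filter, a filter of 5 CPM in 3 libraries, the tools DESeq2 1.42.0, limma-voom and limma-trend (limma 3.58.1, log2 of signal plus 1), only the groups compared, the muscle covariate and leaving out libraries.

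The members and the gene lists were chosen with earlier results of these data known. Named from each pathway list were the called genes, up to 6 with the smallest p, and for Nr3c1, Fkbp5 and Errfi1 the 5 nearest genes with a mean of at least 5 CPM. Intervals cover the spread between pools. No batch label was given.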

Additional observations from a re-analysis of the deposited data

How the results depend on the processing

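The number of members called in wild type was 1 with all libraries and on leaving out each library in turn. It was 2 with DESeq2, 4 with the muscle covariate and 0 without libraries 8, 9 and 12. In the knockout it was 3, with a range of 0 to 4 on leaving out 1 library, and 5 both with the muscle covariate and with only the groups of the contrast. The averaged count was 4, with 3 to 4 on leaving out 1 library, 7 with the muscle covariate and 2 without libraries 8, 9 and 12. The interaction and both knockout comparisons gave 0 throughout.

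Leaving out 1 library turned the direction of 3 small wild-type ethanol changes. Their log2 ranges were −0.063 to 0.016 for Nr3c1, −0.099 to 0.374 for Hsd11b1 and −0.022 to 0.382 for Dusp1. Without libraries 8, 9 and 12, Hsd11b1 in wild type was −0.11, Klf9 in the knockout under PBS was 0.317 (−0.37 with all libraries), and the Klf9 interaction was −0.063 (0.36 with all libraries). The cause was not tested, and that fit has 9 libraries, with 1 in the wild-type PBS group that is assumed to vary like the other groups. No other printed gene changed sign under the alternatives run. At least 5 CPM in 3 libraries removes Hif3a, Ptgs2 and Cxcl10, so that setting has no value for them. Depth limits Hif3a most, at 26 to 167 counts per library. No paired analysis was possible because the replicate numbers in the labels run from 1 to 12 and no 2 groups share one.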
